A study of Homo sapiens with 8 samples.

Results

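The regions described here are the array probes that lie more than 250 and up to 2000 bp upstream of the nearest annotated transcription start, outside promoters that the array annotates as divergent. A probe is a short DNA oligonucleotide, of 44 to 60 bases in this set, that reads the amount of a chromatin fragment covering its position. The distance of each probe to every start near it is listed in the array annotation, and a probe was taken when its smallest absolute distance lay in this range on the upstream side. The rule found 93685 of 474392 probes, and 93417 remained after spots with an outlier flag were left out. They belonged to 16227 gene names, with a median of 5 probes per gene. The nearest start came from RefSeq for 70716 of the 93417 probes, from the MGC cDNA collection for 11337, from Ensembl for 9626 and from a miRNA for 1738.

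Chromatin immunoprecipitation (ChIP) with an antibody to SMAD3 was carried out in A549, an established human lung adenocarcinoma cell line used as a model of alveolar epithelium. Cells were either unstimulated or exposed for at most 2 h to TGFβ1 (2 ng/ml), with 2 replicates in each condition. All cells were serum-starved beforehand, no genetic change is named, and the labels do not fix the exposure more closely, although the legend of an array profile in the study names a shorter time. Each replicate was hybridized to 2 slides that carry different probes, with the SMAD3 IP in the red channel and a mock IP in the green channel, named as anti-FLAG in the source labels and as control IgG in the protocol. All values below are log2 ratios of SMAD3 IP over mock IP, so that a positive value means more signal in the SMAD3 IP, and each array was centred on the median of its probes. A549 is a single tumor line, the labels call the replicates biological without saying whether they were separate cultures, and all p-values measure only the spread between these 4 replicates.

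TGFβ1 binds a pair of receptor serine kinases, which phosphorylate SMAD2 and SMAD3 so that they join SMAD4 and enter the nucleus. The SMAD3 complex touches DNA through short elements such as CAGAC, the SMAD binding element, and usually acts with partner factors bound close by. The study also scanned for an alternative GC-rich SMAD3 motif, which is not marked in the sequences below. The stretch upstream of the core promoter holds many such partner sites, and chromatin there is less accessible than at the start itself.

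The bases that separate the regions from the start are shown for 4 genes, chosen because their upstream regions gave some of the largest values of this report and because the first probe read in both channels began close to the end of the printed stretch. Each is the 250 bases before the RefSeq start in build GRCh38.p14, 5′ to 3′ toward the gene, with CAGAC or its reverse complement GTCTG in capitals, and by the array annotation the probes lie before its first base. The start used for the array may differ from this RefSeq start, and no probe sequences were used here. The coordinates are chr3:87227059-87227308, plus strand, for CHMP2B, chr15:88803186-88803435, plus strand, for ACAN, chr2:88691423-88691672, plus strand, for RPIA and chr10:98268195-98268444, minus strand, for LOXL4.
CHMP2B: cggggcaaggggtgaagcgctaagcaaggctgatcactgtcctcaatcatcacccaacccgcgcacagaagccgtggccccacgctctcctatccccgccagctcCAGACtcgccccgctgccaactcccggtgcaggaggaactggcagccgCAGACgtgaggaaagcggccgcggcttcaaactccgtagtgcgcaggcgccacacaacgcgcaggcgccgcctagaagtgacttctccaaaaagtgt
ACAN: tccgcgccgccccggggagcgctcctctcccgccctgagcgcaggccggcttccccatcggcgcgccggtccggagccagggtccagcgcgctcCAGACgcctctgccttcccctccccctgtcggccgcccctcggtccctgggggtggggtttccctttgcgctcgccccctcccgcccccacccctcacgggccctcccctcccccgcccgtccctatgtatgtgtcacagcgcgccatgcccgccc
RPIA: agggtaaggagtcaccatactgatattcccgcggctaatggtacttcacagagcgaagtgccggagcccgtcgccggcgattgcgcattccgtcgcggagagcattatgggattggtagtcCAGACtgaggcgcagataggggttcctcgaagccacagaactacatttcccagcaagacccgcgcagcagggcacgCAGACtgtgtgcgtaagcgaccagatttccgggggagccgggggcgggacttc
LOXL4: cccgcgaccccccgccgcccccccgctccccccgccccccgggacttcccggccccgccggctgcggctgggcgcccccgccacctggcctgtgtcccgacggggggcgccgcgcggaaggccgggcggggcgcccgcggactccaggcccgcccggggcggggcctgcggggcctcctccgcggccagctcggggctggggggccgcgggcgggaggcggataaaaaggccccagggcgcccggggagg
The element occurred 2 times in the CHMP2B stretch, 1 time in that of ACAN and 2 times in that of RPIA, and no match was found in the LOXL4 stretch. Of 27305 RefSeq promoters, 37.8% held at least 1 match in the same 250 bases, so that a match is common. It marks letters and not a binding site. Other genes named below fit the same choice, and the same stretch of ANKRD56, BHLHB4 and DPYSL3 held no match. The 4 stretches are therefore examples, and their share with a match is not a result.

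The proximal upstream probes were dimmer than those at the start. A probe is called well above background by the scanner software when its signal exceeds the background of the array, and otherwise the software puts a surrogate value in its place. Both channels were well above background for 42.8% and 44.5% of the proximal upstream probes in the unstimulated replicates and for 40.3% and 42.4% in the stimulated replicates. Only 29071 probes, or 31.1%, met this on all 4 replicates, and they are called measured below. A log2 ratio in which a channel was below background on both arrays of a condition is at most a bound. This applied to 46671 probes in the unstimulated and 49204 in the stimulated condition. In unstimulated cells the SMAD3 channel was dim at 43052 of them and the mock channel at 37754, so many were dim in both. A ratio with both channels dim gives no bound in either direction, but such probes are counted as bounds here and below. No proximal upstream probe was saturated on both arrays of a condition. Over all probes of an array, both channels were well above background for 38.7% to 51.5%, the number of arrays limits the precision, and no array holds expression data against which the cell type could be checked.

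At the basal level, SMAD3 IP signal over mock IP was found at a small share of the proximal upstream probes. In the limma fit across all probes with an adjusted p under 0.05, 6993 proximal upstream probes, or 7.49%, were higher in the SMAD3 IP, beside 8.92% of all probes tested. After TGFβ1 stimulation the number was 6475, or 6.93%, beside 8.22% of all probes. The mock IP was the higher channel at 16154 probes (17.3%, beside 17.4% of all probes) in unstimulated cells and at 16790 probes (18.0%, beside 18.5%) in stimulated cells.

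The balance between both directions depended on where 0 was set. Surrogates in both channels made up 36.2% to 49.1% of the probes of an array, so that the median on which each array was centred lies among probes without signal. With each array centred on its measured probes instead, 22.7% of the proximal upstream probes were called for the SMAD3 IP and 15.8% for the mock IP in unstimulated cells, and 30.5% and 15.6% in stimulated cells, beside 24.2%, 15.9%, 31.6% and 15.8% of all probes, respectively. Calls were also fewer with any replicate left out. Such a fit has less information on the spread between replicates. A call lost there, here or below, therefore does not by itself show a changed ratio. The share called for the SMAD3 IP in unstimulated cells was 3.97% without unstimulated replicate 1 and 3.43% without unstimulated replicate 2, and that for the mock IP was 10.2% and 8.20%. In stimulated cells the share for the SMAD3 IP was 4.52% without stimulated replicate 1 and 4.20% without stimulated replicate 2, and that for the mock IP was 11.8% without stimulated replicate 2.

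The SMAD3 signal of these regions was graded, with the probes nearest to the start the brightest and the most often enriched. Among the 19118 probes in the nearest 250 bp of the range, 43.8% were measured, against 22.7% among the 10057 probes in the farthest 250 bp. The share called for the SMAD3 IP in unstimulated cells went from 12.3% in the nearest bin to 4.95% in the farthest, and in stimulated cells from 11.7% to 4.17%. The share called for the mock IP changed less, from 19.0% to 15.4% in unstimulated cells. The median log2 ratio of the probes well above background in a replicate was -0.22 and -0.35 in the unstimulated and -0.36 and -0.41 in the stimulated replicates in the nearest bin. In the farthest bin these medians were -0.54, -0.76, -0.69 and -0.86. The farther bin was lower in each of the 4 replicates, by more than the replicates of a condition differed within a bin.

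**Figure D1:**
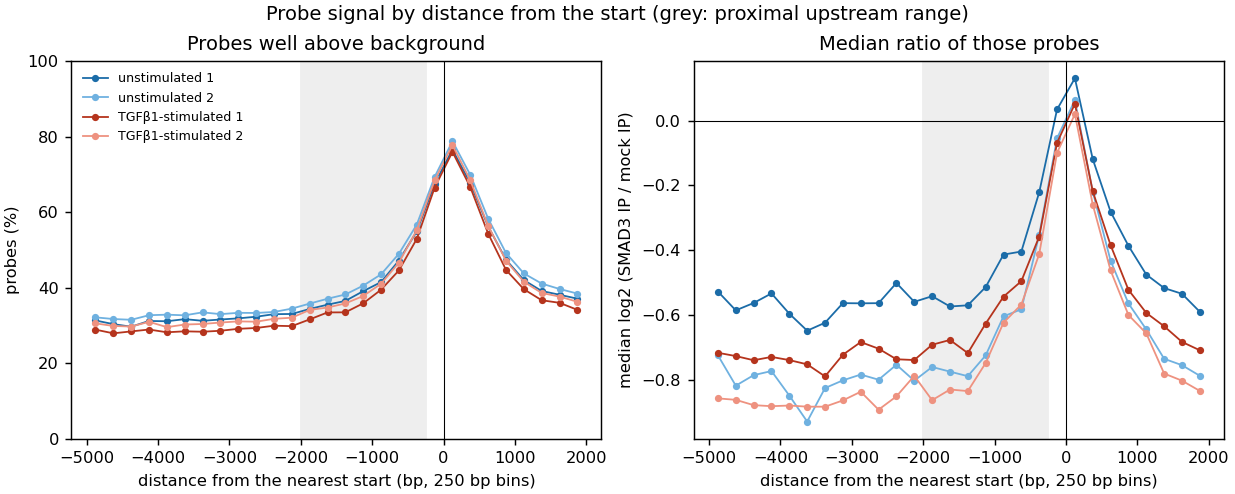
Share of probes well above background in both channels (left, percent) and their median log2 ratio of SMAD3 IP over mock IP (right) in 250 bp bins of distance from the nearest start, with a line per replicate and the proximal upstream range in grey. Within the grey range the share well above background rose toward the start, from 31.6% to 35.8% in the farthest bin to 52.9% to 56.7% in the nearest, and the median ratio was higher in the nearest than in the farthest bin in each replicate.

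At both limits of the range the values were continuous. Of the 4170 probes within 50 bp inside the near limit, 47.8% were measured, and of the 4349 probes within 50 bp outside it, 50.8% were. At the far limit, 21.4% of the 1956 probes just inside and 21.8% of the 1983 probes just outside were measured.

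Compared with probes within 250 bp of the start, the proximal upstream probes were well above background less often and held fewer probes enriched in the SMAD3 IP. The share well above background was lower by 29.5, 29.9, 31.2 and 31.1 percentage points in unstimulated replicates 1 and 2 and stimulated replicates 1 and 2, respectively. Among probes well above background, 22.7%, 21.9%, 22.0% and 21.5% of the proximal upstream probes had a SMAD3 IP over mock IP ratio above 1.5, against 37.9%, 37.5%, 36.5% and 36.3% within 250 bp of the start. The mean difference was -15.0 percentage points (SD 0.476, n = 4), in the same direction in 4 of 4 replicates (two-sided exact sign-flip permutation test over replicates, p = 0.125, the smallest that 4 replicates allow). With arrays centred on the measured probes the difference was -15.6 percentage points (SD 0.693).

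Compared with probes more than 2000 bp upstream, the proximal upstream probes held more SMAD3 signal. The share with a ratio above 1.5 was higher by 4.98, 4.86, 6.08 and 6.14 percentage points in the 4 replicates, with the same smallest possible p = 0.125 in the exact sign-flip permutation test. The median log2 ratio of probes well above background was higher by 0.19 on average (SD 0.0317, n = 4). These differences exceeded the spread between replicates, although a test over 4 replicates cannot reach the usual threshold.

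The profile across the proximal upstream probes differed between the conditions far more than between replicates. Over all 93417 probes the log2 ratios of the unstimulated replicates correlated with r = 0.892 and those of the stimulated replicates with r = 0.915, whereas the 4 pairs of an unstimulated with a stimulated replicate gave r = 0.177 to 0.202. Over the 29071 measured probes the corresponding values were 0.938, 0.952 and 0.276 to 0.299. These correlations are across probes, which share arrays and fragments and are not independent, and are given as a description. Of the 6993 probes enriched in the SMAD3 IP in unstimulated cells and the 6475 in stimulated cells, 3022 were enriched in both, which is 43.2% and 46.7% of each list, beside 47.9% and 51.9% over all probes. A further 1589 probes (1.70%, beside 1.81% of all probes) went from higher in the SMAD3 IP to higher in the mock IP, and 1192 (1.28%, beside 1.41%) went the opposite way.

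**Figure D2:**
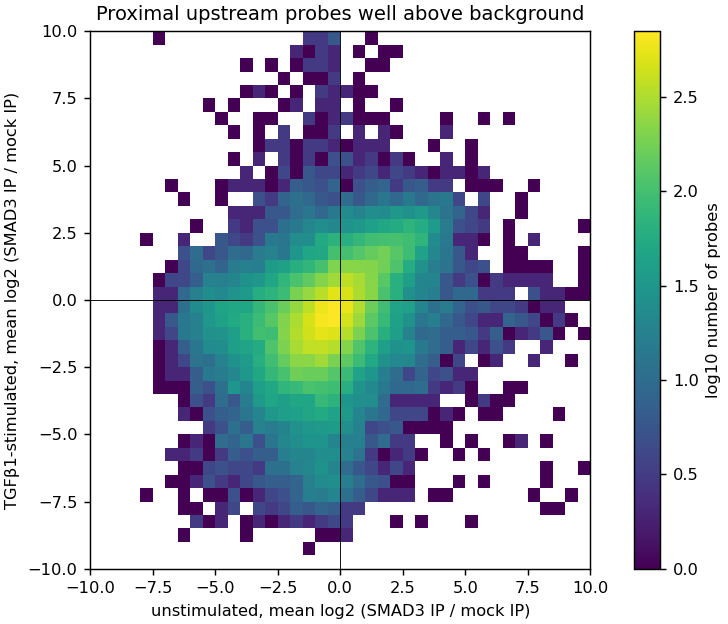
Number of measured proximal upstream probes (color, log10 scale) by their mean log2 ratio of SMAD3 IP over mock IP in unstimulated (x axis) and TGFβ1-stimulated cells (y axis), in bins of 0.5. Beside the main cloud of the 29071 probes, arms along each axis hold probes with a very large ratio in 1 condition and a value near 0 in the other, and both axes are drawn from -10 to 10.

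The largest ratios were mostly not shared between the conditions, here as on the whole array. In unstimulated cells, 472 proximal upstream probes of 308 genes had a SMAD3 IP signal over 32-fold that of the mock IP in both replicates, and in stimulated cells 371 probes of 239 genes did. Of these 472 probes, 71 (15.0%) also had a ratio above 1.5 in both stimulated replicates, and 118 (25.0%) had a ratio of more than 1.5 the other way, beside 17.5% and 24.2% over all probes. Of the 371 probes, 32 (8.63%) also had a ratio above 1.5 in both unstimulated replicates, beside 12.7% over all probes. The mock IP was over 32-fold higher at 1123 probes in unstimulated and at 1910 probes in stimulated cells. The shares over all probes of the array were similar, at 0.50% and 0.391% for the SMAD3 IP and 1.20% and 2.04% for the mock IP, against 0.505%, 0.397%, 1.20% and 2.04% of the proximal upstream probes.

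After TGFβ1 stimulation, the log2 ratio was higher at 9651 proximal upstream probes (10.3%, beside 10.5% of all probes tested) and lower at 10968 (11.7%, beside 12.4%), by limma with an adjusted p under 0.05. The share called higher was 5.81% and 4.87% without unstimulated replicate 1 or 2 and 5.90% and 6.0% without stimulated replicate 1 or 2. The share called lower was 4.49% and 4.18% without unstimulated replicate 1 or 2. Both shares were close to those of the whole array, and the direction of change was not particular to these regions. The median log2 ratio of the probes well above background was -0.42 and -0.60 in the unstimulated and -0.54 and -0.64 in the stimulated replicates. These groups overlap, with a difference of -0.08 (two-sided exact permutation test over the 4 replicates, p = 0.667, where the smallest possible is 0.333).

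A change in the ratio can come from either channel, and both channels moved. Among the 5580 measured probes called higher, the median change in log2 ratio was 2.28, and the medians of the log2 signal change were 0.74 in the SMAD3 channel and -1.49 in the mock channel, each set to its own array median over measured probes. Among the 7310 called lower, with a median change of -2.25, the medians were -0.61 in the SMAD3 channel and 1.11 in the mock channel. The mock channel moved more than the SMAD3 channel at 58.6% of the probes called higher and 57.2% of those called lower, beside 51.3% of those not called. Its part in each result was not tested.

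Neighboring probes moved together over the length of a chromatin fragment. For measured probes of the same gene whose centres lay up to 150 bp apart, the log2 ratios correlated with r = 0.352 and 0.338 in the unstimulated and 0.345 and 0.331 in the stimulated replicates, over 6373 pairs. For 150 to 250 bp, r was 0.280 to 0.322 over 4649 pairs. It was 0.156 to 0.209 over 1210 pairs for 250 to 400 bp and 0.183 to 0.222 over 538 pairs for 400 to 700 bp. For 700 to 1700 bp it was -0.03 to 0.02 over 443 pairs, so the fall with spacing was not steady. The change after TGFβ1 followed a similar course, with r = 0.379 up to 150 bp, 0.127 at 250 to 400 bp, 0.188 at 400 to 700 bp and -0.05 at 700 to 1700 bp. Pairs share an array and often a fragment, so these values are a description. Among the 11022 pairs of adjacent measured probes within 250 bp, the partner of a probe called higher after TGFβ1 was also called higher in 28.2% of cases, beside 19.7% of all probes in these pairs, with a probe counted in each of its pairs. For probes called lower the values were 35.0% and 26.0%.

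To describe genes, the proximal upstream probes of a gene were averaged into a window of at least 3 probes, which gave 12040 windows with a median of 7 probes. After TGFβ1, 1987 windows (16.5%, beside 16.7% of the 59440 windows of all distance classes) were higher and 2400 (19.9%, beside 21.2%) were lower, by limma with adjustment over all windows. Without unstimulated replicate 2, stimulated replicate 1 or stimulated replicate 2, 10.9%, 10.3% and 10.9% were called higher, and without unstimulated replicate 1 or stimulated replicate 2, 12.6% and 13.1% were called lower. With arrays centred on measured probes the split was 21.8% higher and 17.4% lower, beside 21.9% and 18.9% of all windows. In unstimulated cells the SMAD3 IP was higher in 1010 windows (8.39%, beside 13.1% of all windows) and the mock IP in 4452 (37.0%, beside 35.6%), and in stimulated cells these were 842 (6.99%, beside 11.3%) and 4786 (39.8%, beside 38.5%). The share for the SMAD3 IP was 4.78% and 4.58% without unstimulated replicate 1 or 2, and 3.63% and 3.71% in stimulated cells without stimulated replicate 1 or 2. The share for the mock IP was 21.7% without unstimulated replicate 2 and 24.8% without stimulated replicate 2. The gap between the proximal upstream and all windows for the SMAD3 IP was not seen among windows of at least 5 probes, with 8.94% beside 8.84% in unstimulated and 7.47% beside 7.08% in stimulated cells. In 282 windows (2.34%, beside 2.92% of all windows) the SMAD3 IP was the higher channel at the basal level and the mock IP after stimulation, and in 214 (1.78%, beside 2.01%) the order was the opposite.

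The shares called depended on how dim probes were treated. They are given here in the order SMAD3 IP and mock IP in unstimulated cells, SMAD3 IP and mock IP in stimulated cells, higher and lower after TGFβ1. With a model-based background correction (normexp), 0.495%, 0.938%, 2.15%, 4.22%, 1.65% and 2.87% of the proximal upstream probes were called, beside 0.607%, 0.936%, 2.42%, 4.24%, 1.70% and 2.83% of all probes, and 3.34% and 6.79% of the windows were higher and lower, beside 3.57% and 6.44% of all windows. When at least 1 channel had to exceed background on every array, the shares were 18.0%, 39.2%, 17.1%, 43.5%, 19.8% and 25.1%, beside 20.4%, 38.0%, 19.1%, 42.3%, 19.5% and 25.2%, and 19.8% and 30.9% of windows, beside 19.9% and 31.4%. When both channels had to, they were 23.2%, 43.0%, 21.9%, 47.5%, 23.7% and 30.7%, beside 26.1%, 41.1%, 24.4%, 45.5%, 23.2% and 30.7%, and 22.9% and 36.0% of windows, beside 22.4% and 36.0%. Centring on measured probes gave 12.0% higher and 11.6% lower probes after TGFβ1, beside 12.2% of all probes in each direction.

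The largest rises after TGFβ1 were found upstream of CHMP2B, ACAN, WNT9B, ANKRD56 and GTPBP5, and all but the last were also among the 5 highest ratios in stimulated cells. CHMP2B encodes a subunit of the ESCRT-III membrane scission complex, ACAN the cartilage proteoglycan aggrecan, WNT9B a secreted WNT ligand and GTPBP5, now MTG2, a GTPase of the mitochondrial ribosome. Windows named here had at least 3 measured probes and were taken by the size of their value, so that their size is a description. Probes below background enter them as bounds at most. Here and in the lists below, the change of a channel is that of the mean processed log2 signal over all probes of the window. It includes surrogate values and was not set to an array median. It can therefore hold differences in array brightness and need not add up to the change in ratio.

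The CHMP2B window, 13 probes of which 4 were measured, had log2 ratios of 0.12 and -0.16 in the unstimulated and 7.10 and 6.36 in the stimulated replicates. The groups do not overlap, and the change was 6.75 ± 0.28 (SE, limma adjusted p = 0.000448), or 7.27 over the measured probes alone. The stretch of high probes began at the probe nearest to the sequence printed above, with stimulated ratios of 9.14 and 8.81 at position -352. It ran to position -1833 with a break at -1373, where the ratios were 0.42 and -0.23 and both channels were well above background. The ACAN window, with 5 of 6 probes measured, had -0.73 and -1.27 in the unstimulated and 5.38 and 5.0 in the stimulated replicates. Its change of 6.19 ± 0.24 (limma adjusted p = 0.000409) came from the probes at positions -927 to -1536, while those at -379 and -541 stayed between -0.64 and 1.03 in all replicates. In both windows the SMAD3 channel changed most, by 7.93 and 6.60 on the log2 scale, against 1.03 and 0.28 in the mock channel.

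WNT9B, with all 3 probes measured, had -1.37 and -1.34 in the unstimulated and 5.31 and 4.22 in the stimulated replicates, a change of 6.12 ± 0.38 (adjusted p = 0.000838 by limma). ANKRD56, now SOWAHB, went from -0.08 and -0.29 to 5.85 and 5.69, a change of 5.96 ± 0.14, or 3.97 over its 4 measured probes. GTPBP5 reached the list in another way, since its ratios of -5.99 and -5.82 in unstimulated cells moved to -0.17 and -0.19 in stimulated cells. There the mock channel fell by 4.82 on the log2 scale and the SMAD3 channel was higher by 1.04.

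BHLHB4, now BHLHE23, a basic helix-loop-helix transcription factor gene, completed the 5 highest windows in stimulated cells, with 4.65 and 4.64 against 0.03 and 0.02 in unstimulated cells. All 10 of its probes were measured. Its stimulated ratios alternated along the DNA from position -294 to -985. The stimulated ratios were 9.46 and 9.52 at position -308, 0.36 and -1.17 at -523, 8.58 and 9.07 at -586, -0.54 and -0.12 at -678 and 10.47 and 10.18 at -778. The high and the low probes were the same in both replicates, and the unstimulated ratios at these 5 probes lay between -0.70 and 0.07. At -294 the stimulated ratios were -1.08 and 0.49. Farther upstream the unstimulated ratios were 2.49 and 2.33 at -871 and -1.92 and -1.79 at -985. They were 0.80 and 0.76 at -1109 and 1.45 and 1.64 at -1181. The unstimulated window mean near 0 thus averages probes of both signs.

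The largest falls were found upstream of CCDC86, RAB5C, LOXL4, HAPLN3 and ISY1. RAB5C encodes a small GTPase of early endosomes, LOXL4 a lysyl oxidase that crosslinks collagen, HAPLN3 a link protein that ties hyaluronan to proteoglycans and ISY1 a splicing factor. In RAB5C, with 9 of 10 probes measured, the ratios were 3.66 and 3.60 in the unstimulated and -3.68 and -3.42 in the stimulated replicates, a change of -7.18 ± 0.14 (limma adjusted p = 0.000302). At position -1166 the ratio went from 8.38 and 8.57 to -8.04 and -7.66, whereas at -1402 it was between -0.74 and 0.08 in all 4 replicates. In LOXL4 the ratios went from 3.97 and 3.62 to -3.65 and -2.78, with the values farthest from 0 among measured probes at position -1583, and its change was -7.00 ± 0.33, or -5.41 over its 4 measured probes.

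CCDC86 had the highest ratio of all in unstimulated cells, at 7.16 and 7.10, and moved to -1.63 and -1.24 in stimulated cells, a change of -8.56 ± 0.17 (limma adjusted p = 0.000302). HAPLN3 went from 3.72 and 3.77 to -1.80 and -2.24. In these windows the SMAD3 channel fell by 6.79 and 5.82, respectively. ISY1 differed from them, since its ratios of 0.30 and 0.15 moved to -4.98 and -5.80 while the mock channel was higher by 7.15 and the SMAD3 channel by 1.69.

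**Figure D3:**
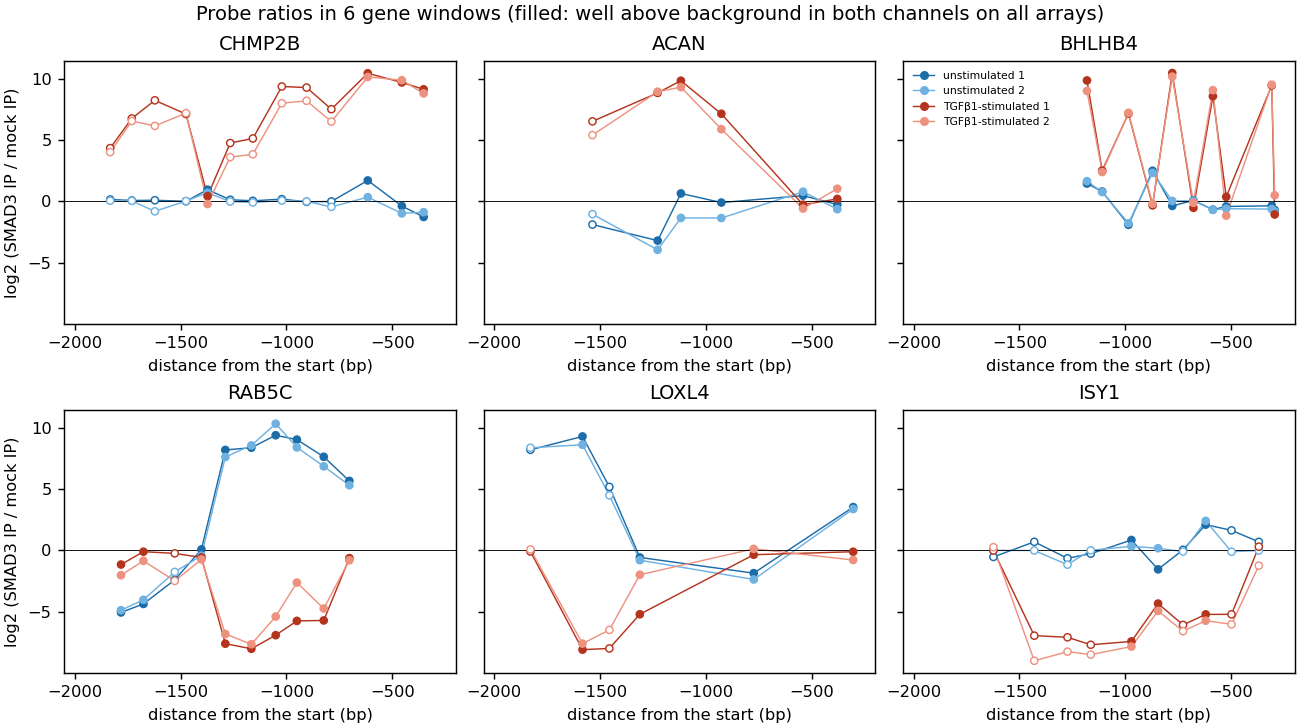
Log2 ratio of SMAD3 IP over mock IP (y axis) at each proximal upstream probe of 6 genes against its distance from the start (x axis, bp), with blue for the 2 unstimulated and red for the 2 stimulated replicates and filled points for measured probes. The replicates of a condition run together, CHMP2B and ACAN show runs of adjacent high probes after stimulation, BHLHB4 alternates between probes, and RAB5C and LOXL4 change sign between the conditions.

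The other windows with the highest basal ratios were RPIA, DPYSL3, KCNA1 and CCDC11. RPIA encodes ribose-5-phosphate isomerase of the pentose phosphate pathway, DPYSL3 a cytoskeletal protein of growing axons and KCNA1 a voltage-gated potassium channel. RPIA had 4.75 and 5.05 in the unstimulated against 0.72 and 0.67 in the stimulated replicates, DPYSL3 4.29 and 4.94 against 1.49 and 1.16, and KCNA1 4.49 and 4.60 against -0.06 and -0.24. CCDC11, now CFAP53, had 4.51 in both unstimulated replicates against 0.03 and -0.05. All 4 were lower after TGFβ1, with changes from -3.28 to -4.70, and no pair of conditions overlapped.

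The listed genes, 70 windows in 8 lists, moved in both directions. The lists hold genes of the TGFβ pathway, immediate targets, matrix, EMT and contractile genes, lung epithelial genes and further genes that the study named. Of them 16 were higher and 17 were lower after TGFβ1, which is 22.9% and 24.3%, beside 16.5% and 19.9% of all proximal upstream windows. The median change was 0.01, beside -0.02 over all proximal upstream windows. Many of these windows rest on dim probes, since 33 of the 70 had at least 3 measured probes. Among these 33, 4 were higher and 11 lower (12.1% and 33.3%, beside 18.2% and 27.1% of the 4161 proximal upstream windows of this kind). Among the other 37, 12 were higher and 6 lower (32.4% and 16.2%, beside 15.6% and 16.2% of the 7879 proximal upstream windows with fewer than 3 measured probes). A window is a mean over a distance range and not a fitted binding peak, probes not well above background enter it through surrogate values, and windows on chromosome 8 are counted but not described. Of the 48 windows named in this text as changed, 35 were no longer called with normexp, and when the median of the probes replaced the mean 25 were no longer called and LTBP4 was called in the opposite direction. The direction turned for BMPR1A (0.06) and LTBP4 (1.14) with medians, for MMP2 (-0.02) with normexp, for SMAD6 (0.03) and TPM1 (-0.08) among probes with a channel above background, and for MYO1D (0.44) and TAGLN (0.26) in windows up to 1000 bp. Of the 37 listed windows not called, 4 were called with loess, and of the 18 that could be fitted on probes above background in both channels, 5 were called there.

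Among the ligand genes, windows were available for TGFB2 and for the latent TGFβ binding proteins, which hold the ligand in the matrix. LTBP1 was higher, from -0.78 and -1.07 to 0.09 and 0.03, a change of 0.98 ± 0.15 (limma adjusted p = 0.00837), and LTBP3 was higher by 0.97 ± 0.21. In both windows each channel was lower after TGFβ1, by more in the mock channel (-2.03 and -2.86 on the log2 scale) than in the SMAD3 channel (-0.89 and -1.76). LTBP4 was lower by 1.06 (change -1.06 ± 0.17, from -1.32 and -1.19 to -2.13 and -2.50). The LTBP1 call was lost without stimulated replicate 1 (change 0.95), that of LTBP3 without stimulated replicate 1 (0.75) and without either unstimulated replicate (0.81 and 1.13), and that of LTBP4 without unstimulated replicate 2 (-0.99). TGFB2 (-0.37 ± 0.16, but called over its measured probes at -0.61) and LTBP2 (0.00 ± 0.11) were not called.

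Among the receptors, 3 of 7 windows were lower and none was higher, beside 19.9% lower and 16.5% higher of all proximal upstream windows. TGFBR1, the type I receptor for TGFβ, went from 0.20 and -0.06 to -1.50 and -1.71, a change of -1.67 ± 0.16 (limma adjusted p = 0.00223), or -3.31 over its 4 measured probes. The TGFBR1 change was not called with medians. BMPR1A, a BMP type I receptor, changed by -0.64 ± 0.11, or -2.34 over its 3 measured probes. ACVR1B, an activin type I receptor, had no measured probe, with -0.47 and -0.43 in the unstimulated and -2.91 and -2.50 in the stimulated replicates. Of its 3 probes 2 were bounds in each condition, so the size of its change is not known, and it was not called with medians (-0.59). In TGFBR1 the mock channel was higher after TGFβ1 by 1.82 on the log2 scale and the SMAD3 channel by 0.30. The call for BMPR1A was lost without unstimulated replicate 1 (-0.64), unstimulated replicate 2 (-0.64) or stimulated replicate 1 (-0.60). ACVRL1 (-0.47), BMPR2 (0.23), ENG (-0.09) and TGFBR2 (0.25) were not called. Over measured probes alone ACVRL1 was called lower (-1.52), as was BMPR2 (-0.95), which was called higher with loess (0.39).

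Among the SMADs, 2 of 8 windows were higher and 1 was lower (25% and 12.5%, beside 16.5% and 19.9% of all proximal upstream windows). SMAD4, the common partner of the receptor-regulated SMADs, went from -0.86 and -1.24 to 1.1 and 0.62, a change of 1.91 ± 0.23 (limma adjusted p = 0.00449), with 1.82 in the SMAD3 channel and -0.23 in the mock channel. SMAD2, a receptor-regulated SMAD, went from -1.21 and -1.03 to 0.34 and 0.42, a change of 1.5 ± 0.13, and here both channels were lower, with -1.29 in the SMAD3 channel and -2.93 in the mock channel. Each had 2 measured probes. The inhibitory SMAD6 was lower by 0.53 (-0.53 ± 0.14), a call that was lost when any of the 4 replicates was left out (-0.62 to -0.43), and over its 5 measured probes it was -0.03. SMAD3 itself (0.11), SMAD1 (0.07), SMAD5 (0.05), SMAD9 (0.00) and the inhibitory SMAD7 (-0.10 ± 0.13) were not called.

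Of the 7 windows of corepressor and ubiquitin ligase genes, SMURF1, TGIF2 and NEDD4L were higher and TMEPAI, now PMEPA1, was lower. That is 42.9% higher and 14.3% lower, beside 16.5% and 19.9% of all proximal upstream windows. SMURF1, a ligase that marks SMADs and receptors for degradation, went from -1.77 and -1.35 to 0.13 and -0.09, a change of 1.58 ± 0.19 (limma adjusted p = 0.0046). The ligase NEDD4L changed by 1.19 ± 0.12 and the corepressor TGIF2 by 1.34 ± 0.27. In each of these both channels were lower after TGFβ1, with -0.81, -1.25 and -0.97 in the SMAD3 channel and -2.54, -2.57 and -2.45 in the mock channel of SMURF1, NEDD4L and TGIF2, respectively. TMEPAI, which sequesters receptor-regulated SMADs, had 0.05 and -0.37 in the unstimulated and -2.61 and -2.28 in the stimulated replicates, with no measured probe and with 5 and 2 of its 7 probes as bounds. The TGIF2 call was lost without stimulated replicate 1 (1.05) and without unstimulated replicate 2 (1.12). SKI, with all 6 probes measured, had 0.00 and 0.01 in the unstimulated and 0.28 and -0.03 in the stimulated replicates and was not called, nor were SKIL (-0.23, but called over its measured probes at -0.54) and TGIF1 (-0.15).

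Among the 14 immediate target genes, FOS and CDKN1A were higher and SNAI1 and JUNB were lower. Each direction holds 14.3% of them, beside 16.5% higher and 19.9% lower of all proximal upstream windows. FOS, a subunit of the AP-1 factor, went from -0.60 and -0.52 to 0.92 and 0.83, a change of 1.44 ± 0.12 (limma adjusted p = 0.00154), with the SMAD3 channel higher by 1.32 and the mock channel at -0.26. CDKN1A, the cell cycle inhibitor p21, had no measured probe, with -1.11 in both unstimulated and -0.56 and -0.45 in the stimulated replicates. Of its 7 probes 6 and 5 were bounds, so the size of its change is not known, and it was not called with normexp (0.00) or medians (0.20). SNAI1, a repressor of epithelial genes, had the largest change of the lists, from 0.00 and -0.31 to -6.08 and -4.72 (-5.25 ± 0.47), where the mock channel was higher by 6.57 and the SMAD3 channel by 1.46. JUNB, another AP-1 subunit, changed by -0.76 ± 0.12, or -1.21 over its 4 measured probes. The CDKN1A call was lost without unstimulated replicate 1 (0.61), unstimulated replicate 2 (0.61) or stimulated replicate 2 (0.55), and that of JUNB without unstimulated replicate 1 (-0.68) or stimulated replicate 2 (-0.72). ATF3 and JUN, each with 6 measured probes, were not called (-0.29 ± 0.14 and 0.13 ± 0.13), nor was ID1 (-0.69 ± 0.26). Over its measured probes alone ATF3 was called lower (-1.40), and JUN had 0.23.

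Of the 17 windows of matrix, EMT and contractile genes, 5 were higher and 5 were lower. Each is 29.4%, beside 16.5% higher and 19.9% lower of all proximal upstream windows. FN1, which encodes fibronectin, went from -1.51 and -1.17 to 0.23 and 0.46, a change of 1.69 ± 0.17 (limma adjusted p = 0.00289), with a mock channel change of -1.89 and 2 measured probes of 11. MMP2, a gelatinase, changed by 1.28 ± 0.15, CTGF, a matricellular factor, by 1.18 ± 0.21 and ITGB1, the integrin beta 1 chain, by 0.60 ± 0.14. MMP2 had 1 measured probe of 6. CTGF had 1 of 11, with 5 and 9 probes as bounds, and ITGB1 had 2 of 14, with 10 and 9. The sizes of the CTGF and ITGB1 changes are therefore not known. TPM1, an actin-binding tropomyosin, had -0.13 and -0.31 against 0.92 and 1.03, a change of 1.20 ± 0.13, but -0.13 over its 9 measured probes of 28. The CTGF call was lost without unstimulated replicate 1 (0.96) or stimulated replicate 2 (1.01). That of ITGB1 was lost without unstimulated replicate 1 (0.64), unstimulated replicate 2 (0.57) or stimulated replicate 1 (0.47). FN1, CTGF, ITGB1 and TPM1 were also not called with normexp or with medians, nor were FN1 and CTGF in windows up to 1000 bp.

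The fibrillar collagen gene COL1A1 was lower, from -1.53 and -1.46 to -2.44 and -2.47, a change of -0.96 ± 0.11 (limma adjusted p = 0.00406) that was not called over its 6 measured probes (-0.46), and COL7A1, the anchoring fibril collagen, went from -0.65 and -0.80 to -1.81 and -2.19. VIM, which encodes the mesenchymal filament protein vimentin, went from 0.00 and 0.16 to -1.09 and -1.45, and its change was -1.35 ± 0.17, or -4.40 over its 3 measured probes. TIMP3, a metalloproteinase inhibitor, changed by -1.71 ± 0.15. It had 1 measured probe of 9, with 8 and 5 probes as bounds, so the size of its change is not known. The smooth muscle gene TAGLN changed by -0.45 ± 0.12, a call that was lost when any of the 4 replicates was left out (-0.53 to -0.37), and over its 9 measured probes it was -0.08. None of these 5 lower windows was called with medians, nor COL1A1, TIMP3 and TAGLN with normexp. In COL7A1, VIM and TIMP3 the mock channel was higher after TGFβ1 by 1.19, 1.64 and 1.97 on the log2 scale. Their SMAD3 channel was higher by 0.07, 0.44 and 0.39. In COL1A1 and TAGLN the mock channel changed by 0.42 and 0.40 and the SMAD3 channel by -0.41 and 0.08. COL1A2, COL3A1, ACTA2, CDH2, ITGB6, MMP9 and TIMP1 were not called, with changes from -0.13 to 0.28, although CDH2 was called lower in windows up to 1000 bp (-1.05) and TIMP1 with medians (-1.27).

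Of the 6 windows of lung epithelial genes, 3 were lower and none was higher, beside 19.9% lower and 16.5% higher of all proximal upstream windows. Among proximal upstream windows with at least 3 measured probes, 27.1% were lower. The 3 lower windows belong to transcription factor genes of lung epithelium, as does the GATA6 window, which was not called. FOXA1 went from 0.25 and 0.00 to -1.95 and -1.82, a change of -2.01 ± 0.14 (limma adjusted p = 0.00114), or -4.37 over its 4 measured probes. FOXA2, with 9 of 12 probes measured, went from -0.21 and -0.24 to -0.99 and -1.14, a change of -0.84 ± 0.12. The FOXA2 change was not called with normexp, with medians or in windows up to 1000 bp (-0.23). TITF1, now NKX2-1, changed by -0.75 ± 0.17, or -1.19 over its 3 measured probes, a call lost without unstimulated replicate 1 (-0.82), unstimulated replicate 2 (-0.68) or stimulated replicate 1 (-0.57). FOXA1 and TITF1 were also not called with normexp, nor was TITF1 with medians. In all 3 the mock channel was higher after TGFβ1, by 1.64, 0.41 and 0.74 on the log2 scale, and the SMAD3 channel changed by -0.24, -0.29 and 0.13. GATA6 (0.18), SFTPB (0.42, called higher with loess at 0.54) and SFTPD (-0.02) were not called.

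Of 6 windows of further genes that the study followed up, S100A2, which encodes a calcium-binding protein, went from -1.02 and -1.34 to 0.43 and 0.17, a change of 1.48 ± 0.17 (limma adjusted p = 0.00421), with -0.25 in the SMAD3 and -1.88 in the mock channel, and EPS8, an actin regulator, changed by 0.91 ± 0.15. MYO1D, an unconventional myosin, changed by -0.72 ± 0.17. These genes were chosen on the same samples and are not independent evidence. FGB (-0.24), PDE7B (0.01) and QPCT (0.32) were not called. The EPS8 call was lost without unstimulated replicate 1 (0.85), and that of MYO1D without unstimulated replicate 1 (-0.74), unstimulated replicate 2 (-0.70) or stimulated replicate 1 (-0.52).

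**Figure D4:**
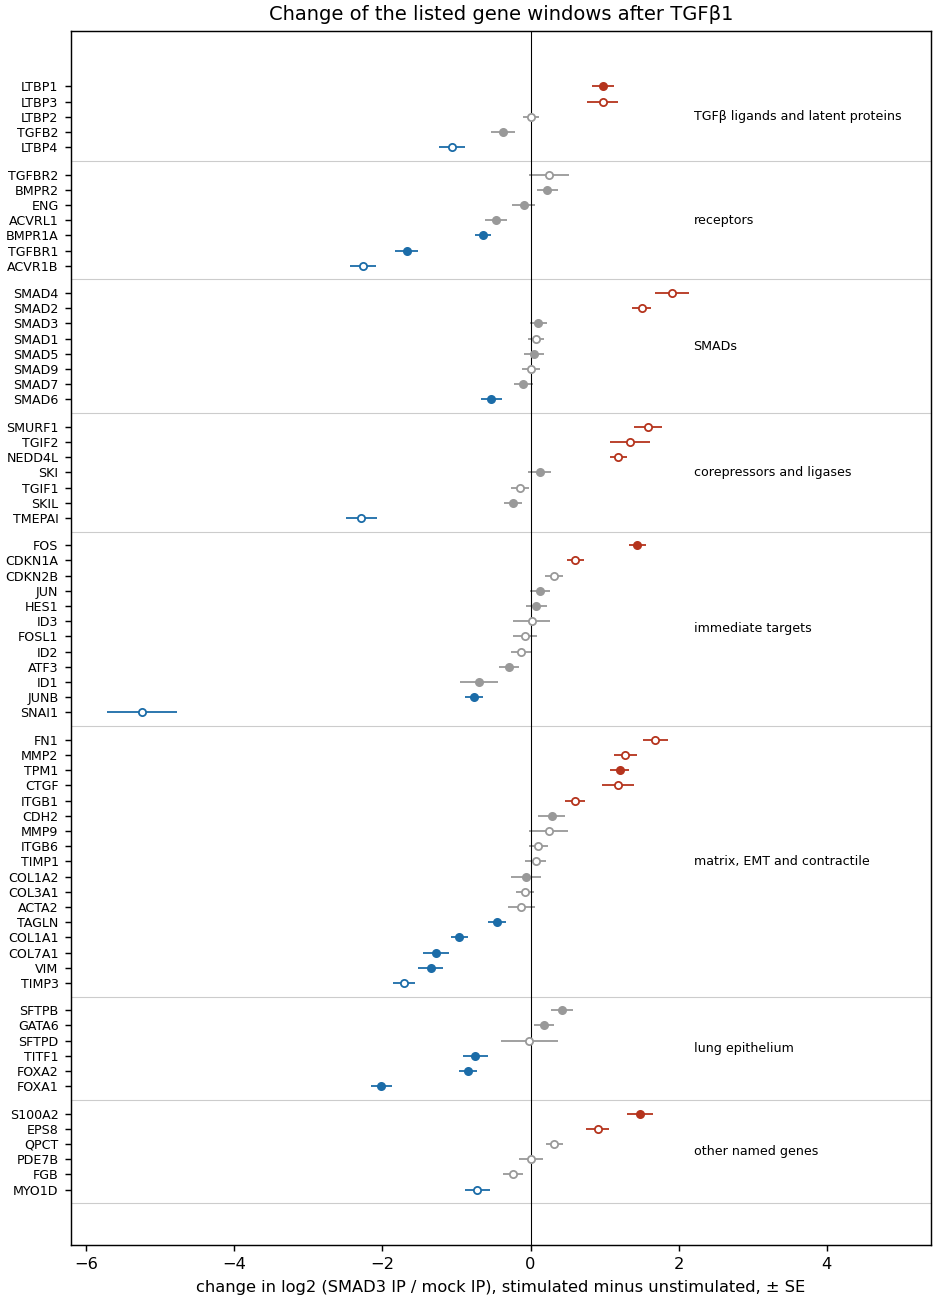
Change in log2 ratio of SMAD3 IP over mock IP after TGFβ1 (x axis, stimulated minus unstimulated, mean over the proximal upstream probes of a gene ± SE of the limma fit) for the listed genes, with red for windows called higher, blue for lower, grey for not called and open points for fewer than 3 measured probes. Each list holds windows on both sides of 0, and SNAI1 at -5.25 lies farthest from 0.

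The change upstream of a gene was only loosely related to that at its start. For the 8267 genes with a window both in the proximal upstream range and within 250 bp of the start, the changes correlated across genes with r = 0.141. For the 9216 genes that also had a window more than 2000 bp upstream, r was 0.04, and in both cases the windows share arrays. Of the 1380 proximal upstream windows higher after TGFβ1 in the first set, 353 (25.6%) were also higher at the start and 335 (24.3%) were lower there, beside 18.3% and 25.9% of all 8267 start windows. Of the 1630 that were lower, 510 (31.3%) were also lower at the start and 259 (15.9%) were higher. The HAPLN3 start window moved with its upstream window, at -6.12, and that of RAB5C did not (-0.01).

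Within the proximal upstream probes, the source of the nearest start made little difference to the basal SMAD3 IP share and the share measured. The share enriched in the SMAD3 IP at the basal level was 7.61% for RefSeq starts, 6.91% for MGC, 7.25% for Ensembl and 7.59% for miRNA starts, and the share measured was 31.0% to 31.7%. After stimulation the SMAD3 IP share was 5.41% for miRNA starts, beside 7.04% for RefSeq, 6.71% for MGC and 6.66% for Ensembl starts. The share lower after TGFβ1 was 13.7% for miRNA starts, beside 11.6%, 11.7% and 12.1%. In the share measured both slides differed more, with 27.1% of the 47763 probes of slide 1 and 35.4% of the 45654 probes of slide 2 measured.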

How the data were processed

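SMAD3 ChIP was hybridized to 2-colour Agilent promoter arrays in 4 replicates, 8 arrays in all. The authors deposited scanner files of Agilent Feature Extraction 9.5.1.1 (version from the submitters' processing notes) with background-subtracted, dye-normalized signal intensities, and a value table whose log2 ratios, as deposited, equal the uncentred ratios of those intensities. The genome build of the probe positions is not given in the sources used here, so none are printed. Groups come from the sample labels. Both slides of a replicate were joined, log2 ratios were centred on each array's median, outlier-flagged spots were left out, and limma 3.58.1 (R 4.3.3) was fitted across all probes, or across windows of at least 3 probes per gene and distance class, with Benjamini-Hochberg adjustment at 0.05. Windows named outside the lists have at least 3 measured probes, lie off chromosome 8, and hold the 5 highest ratios per condition or the 5 largest rises or falls among those past the threshold. The lists show windows past the threshold and those with the most measured probes. The members and lists were chosen with earlier results of these data known.

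Alternatives were normexp (offset 50), loess, the deposited value table, filters on dim probes, each replicate left out, the replicate number as a block, separate slides, a ratio of 1.5 in both replicates, outliers kept, at least 5 probes, medians and windows up to 1000 bp. Centring on measured probes and RefSeq starts only were added after seeing the data. Motif and GC comparisons were not made: probe sequences were not used here, and promoter sequences were matched for 76.7% of windows only, so such a check is void. Tools were Python 3, pandas and matplotlib.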

Additional observations from a re-analysis of the deposited data

How the results depend on the processing

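Of the 48 windows named above as changed after TGFβ1, 8 kept their call in every alternative run for them. With normexp, 35 of 48 were no longer called. The shares of proximal upstream probes called then were 0.495% for the SMAD3 IP and 0.938% for the mock IP in unstimulated cells, 2.15% and 4.22% in stimulated cells, and 1.65% higher and 2.87% lower after TGFβ1, and the window shares were 3.34% and 6.79%. The value table as deposited, without centring, gave 33.4% for the SMAD3 IP in unstimulated and 46.1% in stimulated cells (34.5% and 46.7% of all probes), and centring on measured probes gave 22.7% and 30.5%. Loess gave 10.6% and 11.8% for the SMAD3 IP and the mock IP in stimulated cells (12.3% and 12.1% of all probes). With at least 1 channel above background, the 6 shares, in the order above, were 18.0%, 39.2%, 17.1%, 43.5%, 19.8% and 25.1%, and in both channels 23.2%, 43.0%, 21.9%, 47.5%, 23.7% and 30.7%, with 30.9% and 36.0% of windows lower. Such filters test fewer probes. Medians of probes gave 4.98% higher and 5.45% lower windows (5.93% and 7.21% of all windows). With a replicate left out, the 6 shares ranged from 3.43% to 6.48%, 8.20% to 14.6%, 4.2% to 5.09%, 11.8% to 13.1%, 4.87% to 6.0% and 4.18% to 8.18%, and the window shares from 10.3% to 12.3% and 12.6% to 14.2%, beside 4.08% to 7.74%, 8.14% to 14.8%, 4.99% to 6.09%, 12.1% to 13.5%, 4.83% to 6.12% and 4.23% to 8.54% of all probes and 10.6% to 12.3% and 13.7% to 15.4% of all windows. The median log2 ratio of the measured probes, -0.44 and -0.60 with a change of -0.15, was 0.0187, 0.0164 and -0.00228 with normexp, 0.111, 0.0968 and -0.0144 with loess, 0.0264, 0.0313 and 0.00484 in the value table and -0.0831, -0.0874 and -0.00433 when centred on measured probes, and leaving out replicates gave -0.51 to -0.38, -0.64 to -0.56, -0.22 to -0.09. Directions turned for BMPR1A (0.0632) and LTBP4 (1.14) with medians, MMP2 (-0.0151) with normexp, MYO1D (0.44) and TAGLN (0.26) in windows up to 1000 bp, SMAD6 (0.0266) with signal in at least 1 channel, and TPM1 with signal in at least 1 channel (-0.0839) or in both (-0.126). The cause was not tested.

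The replicate numbers were not shown to pair the samples, since deviations from the condition means correlated with r = 0.0209. With the replicate block, 6.57% and 15.9% of proximal upstream probes were called at the basal level and 8.49% higher and 9.58% lower after TGFβ1 (7.88%, 16.1%, 8.55% and 9.99% of all probes), ID1 gained a call (-0.69), and 2 of the 48 windows, SMAD6 and TAGLN, lost their call. Scan date as a block was not run because all arrays were scanned on 1 day. Comparisons of probes with and without a motif were not run.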
